A study of Danio rerio with 4 samples.

Results

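The transcription factor genes described here are 8 genes of the cardiac regulatory core, gata4, gata5, gata6, hand2, nkx2.5, tbx5a, tbx20 and mef2ca. They were chosen by name, as the rows of the deposited expression table whose gene symbol equals 1 of these names, and all 8 were found among its 19875 genes. The table holds polyadenylated RNA from injured zebrafish ventricles, from 2 ccn2a-/- samples and 2 wild-type samples. All were taken 4 days after the injury and are labelled 4 dpci (days post cryoinjury). Atrium and bulbus arteriosus had been dissected away. The ccn2a gene codes for a matricellular protein that cells release into the matrix. The ccn2a lesion, the strain, the age and the number of hearts behind a sample are not given in the sources used here, so the spread behind every p-value is that between samples and may be only technical. The comparison asks which levels in the injured ventricle go with the loss of ccn2a.

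These proteins bind DNA near heart genes and act together. The zinc finger proteins Gata4, Gata5 and Gata6, the homeodomain protein Nkx2.5 and the T-box proteins Tbx5 and Tbx20 physically contact each other on shared enhancers in vertebrates. Hand2 is a basic helix-loop-helix protein and Mef2c a MADS-box protein, and both bind beside them at contractile genes. In zebrafish embryos the gata5 mutant faust and the hand2 mutant hands off form too little myocardium, and the tbx5a mutant heartstrings fails to loop its heart. In the adult zebrafish heart, regulatory sequence of gata4 becomes active in cardiomyocytes near an injury, and several of these genes are also transcribed in endocardium and epicardium.

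Values are normalised counts, which are read counts that the authors divided by a library factor and rounded. Approximate depth was 18.8 and 18.1 M reads in the ccn2a-/- libraries and 17.2 and 21.5 M reads in the wild-type libraries. Mitochondrial transcripts held 14.7% and 13.6% of the values in ccn2a-/- and 13.4% and 7.66% in wild type. The ventricular myosin gene myh7l had values of 445628 or more in the ccn2a-/- libraries and 353322 or more in wild type. The other ventricular myosin gene, vmhc, is listed as myh7 and had 56906 and 40103 in ccn2a-/- and 32576 and 49540 in wild type, with overlapping groups. The atrial myosin gene myh6 reached 4585 at most in ccn2a-/- and 5854 in wild type. The ccn2a transcript itself, listed under the symbol ctgfa, had 3070 and 1473 in ccn2a-/- and 4737 and 4411 in wild type (limma, adjusted p = 0.381), so it was still detected in the libraries labelled as mutant. Across genes, ccn2a-/- replicate 1 resembled wild-type replicate 2 least (r = 0.897). The most similar pair also crossed the genotypes, ccn2a-/- replicate 2 with wild-type replicate 1 (r = 0.970). Within a genotype r was 0.955 for ccn2a-/- and 0.959 for wild type, so on this measure the libraries did not group by genotype. Genes are not independent replicates. Levels of different genes are not compared here, because no transcript lengths were used.

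The 8 genes did not move as a block. The genes nkx2.5, gata5, hand2 and gata6 were higher in both ccn2a-/- libraries than in both wild-type libraries, gata4 and tbx20 were lower in both, and tbx5a and mef2ca overlapped. Log2 fold changes of ccn2a-/- over wild type ran from -0.90 for tbx20 to 0.77 for nkx2.5, with a median of 0.07 where the median of all tested genes was 6.28e-05. None passed a threshold of 0.05 on the p adjusted over all 16730 genes tested (limma-trend on log2(value + 1), adjusted p from 0.381 to 0.840), and 0% of all tested genes passed. At an unadjusted p under 0.05 stood 2 of the 8, nkx2.5 and gata5, both higher, where 5.89% of all tested genes were higher and 6.93% lower. All genes counted at that level numbered 2145 with limma-trend and 2451 with voom on approximate reads. Of the 8, 4 lay with both mutants above both wild types, where 26.6% of all tested genes did, and 2 with both below, where 25.7% did. In bulk tissue, fewer cells of a type and less RNA per cell cannot be told apart. With 2 libraries against 2, an exact 2-sided permutation test of a single gene cannot give a p below 0.333.

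**Figure D1:**
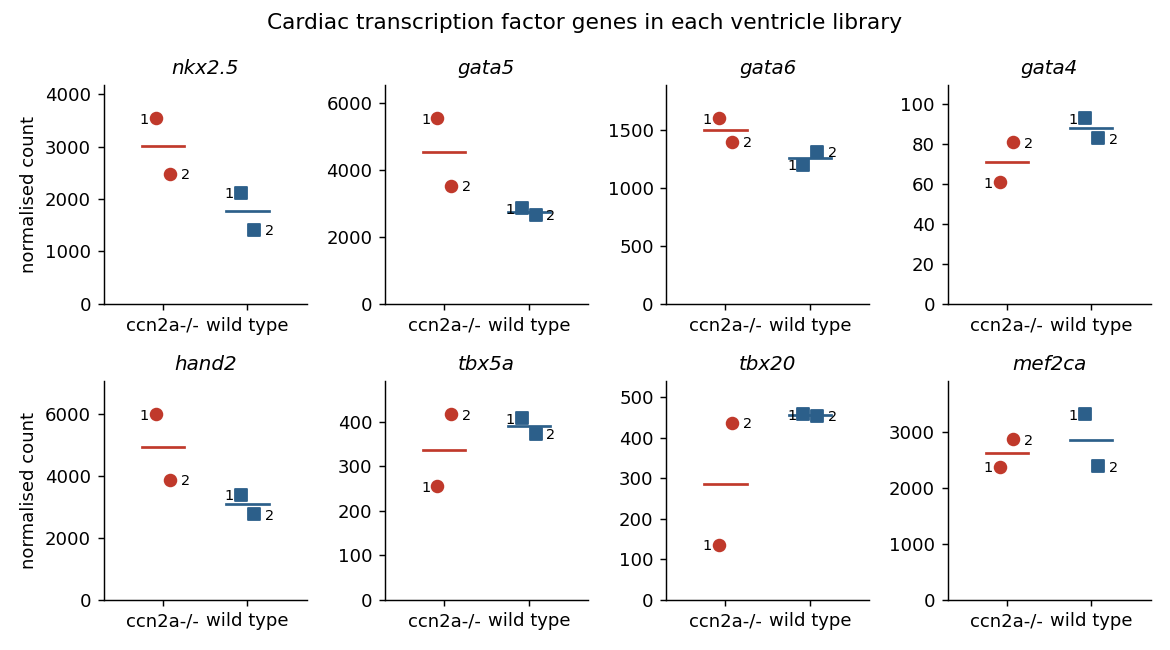
Normalised count (vertical axis, from 0) of each of the 8 transcription factor genes, with ccn2a-/- libraries as red circles on the left of each panel and wild-type libraries as blue squares on the right; digits give the replicate and the horizontal line the mean of 2. The genes nkx2.5, gata5, hand2 and gata6 lie higher in both mutants, and tbx20 is low in ccn2a-/- replicate 1 alone, at 135 against 437 to 458 in the other libraries.

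The homeobox gene nkx2.5 (ENSDARG00000018004, chromosome 14, 24241241 to 24244034, plus strand) codes for the factor that maintains ventricular identity in the zebrafish heart. It had normalised counts of 3538 and 2483 in ccn2a-/- replicates 1 and 2, and of 2122 and 1416 in wild-type replicates 1 and 2. The groups did not overlap, but the gap between the closest libraries of the 2 genotypes was smaller than the gap within either genotype. Its mean was 3011 ± 746 in ccn2a-/- and 1769 ± 499 in wild type (SD, n = 2 each), a level 1.71-fold higher with a 95% interval of 1.05 to 2.77 (limma, adjusted p = 0.381). Leaving out 1 library at a time moved the log2 fold change between 0.48 and 1.07.

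The 3 GATA genes differed among themselves. The zinc finger gene gata5 (ENSDARG00000017821, chromosome 23, 7379728 to 7391028, plus strand), needed for myocardial and endodermal development, had 5547 and 3530 in ccn2a-/- and 2855 and 2663 in wild type. Both wild types were close together, and most of the difference came from ccn2a-/- replicate 1. It was 1.6-fold higher in ccn2a-/- (95% interval 1.03 to 2.5, adjusted p = 0.381), and without ccn2a-/- replicate 1 the log2 fold change was 0.36 in place of 0.68.

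The gene gata6 (ENSDARG00000103589, chromosome 2, 4207209 to 4217887, plus strand), which acts partly redundantly with gata5 in zebrafish heart formation, had 1598 and 1394 in ccn2a-/- and 1196 and 1311 in wild type. The groups did not overlap, but the gap between both replicates 2 was smaller than the gap within either genotype. The mean was 1496 ± 144 in ccn2a-/- and 1254 ± 81.3 in wild type (SD, n = 2 each). That is 1.19-fold higher in ccn2a-/- with an interval from 0.862 to 1.65 (adjusted p = 0.528).

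The gene gata4 (ENSDARG00000098952, chromosome 20, 52952116 to 52967878, minus strand), whose regulatory sequence marks regenerating zebrafish cardiomyocytes, had 61 and 81 in ccn2a-/- and 93 and 83 in wild type. Its direction was opposite to that of gata5 and gata6, with the second mutant and the second wild type nearly level. These values rest on about 53 to 110 reads, and the 95% Poisson interval, which covers counting error only, was 64.2 to 102 for ccn2a-/- replicate 2 and 68.5 to 100.4 for wild-type replicate 2. The fold was 0.802 (95% interval 0.456 to 1.41, adjusted p = 0.643). Under quantile normalisation its groups overlapped and the log2 fold change was -0.16 in place of -0.32, and it was -0.12 without ccn2a-/- replicate 1. The ratio of gata5 to gata4 was 90.9 and 43.6 in ccn2a-/- and 30.7 and 32.1 in wild type. The ratio of gata5 to gata6 was 3.47 and 2.53 in ccn2a-/- and 2.39 and 2.03 in wild type. Both ratios were higher in both mutants. For gata5 over gata4 this adds nothing to the values above, since gata5 was higher and gata4 lower in both mutants. For gata5 over gata6, ccn2a-/- replicate 2 was close to wild-type replicate 1.

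The gene hand2 (ENSDARG00000008305, chromosome 1, 38193147 to 38195012, minus strand), whose protein promotes cardiomyocyte production in zebrafish, had 6012 and 3883 in ccn2a-/- and 3402 and 2768 in wild type. The libraries fell in the same order as for nkx2.5 and gata5, from ccn2a-/- replicate 1 down to wild-type replicate 2. Of all tested genes, 14.6% had that order. The level was 1.57-fold higher in ccn2a-/- (95% interval 0.996 to 2.49, adjusted p = 0.386). The log2 fold change was 0.34 without ccn2a-/- replicate 1 and 0.97 without ccn2a-/- replicate 2, in place of 0.65. The ratio of hand2 to gata5 stayed between 1.08 and 1.1 in ccn2a-/- and between 1.04 and 1.19 in wild type, so these 2 genes kept nearly the same proportion in all 4 libraries.

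The T-box genes were led by a single low library. The gene tbx20 (ENSDARG00000005150, chromosome 16, 42509011 to 42523744, minus strand), which in vertebrates acts in chamber myocardium and in endocardial cushions, had 135 and 437 in ccn2a-/- and 458 and 454 in wild type. Only ccn2a-/- replicate 1 was far from the rest. Its counting interval was 112 to 162 and that of ccn2a-/- replicate 2 was 396 to 481, so the difference inside the mutant group was beyond counting error. The fold was 0.534 with an interval of 0.217 to 1.31 (adjusted p = 0.443), and without ccn2a-/- replicate 1 the log2 fold change was -0.06 in place of -0.90. Only 4.15% of tested genes had a lower log2 difference between ccn2a-/- replicates 1 and 2 than the -1.69 of tbx20. A value in ccn2a-/- replicate 1 more than 2-fold below every other library was found for 1 of the 8 genes and for 6.48% of all tested genes.

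The gene tbx5a (ENSDARG00000024894, chromosome 5, 72264192 to 72289648, minus strand), a regulator of heart looping and fin outgrowth, had 255 and 417 in ccn2a-/- and 408 and 373 in wild type. The groups overlapped, and the low library was again ccn2a-/- replicate 1. The fold was 0.836 (95% interval 0.508 to 1.38, adjusted p = 0.673), and the log2 fold change was 0.10 without that library. Its paralog tbx5b had 108 and 180 in ccn2a-/- and 159 and 98 in wild type (adjusted p = 0.861). The ratio of tbx5a to tbx5b was 2.36 and 2.32 in ccn2a-/- and 2.57 and 3.81 in wild type, and both paralogs were lower in ccn2a-/- replicate 1 than in replicate 2.

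The gene mef2ca (ENSDARG00000029764, chromosome 10, 43544814 to 43655449, minus strand), which with its paralog mef2cb is needed for cardiomyocyte differentiation in zebrafish embryos, had 2382 and 2876 in ccn2a-/- and 3324 and 2392 in wild type. The lowest mutant and the lowest wild type were level, and the fold was 0.928 (95% interval 0.621 to 1.39, adjusted p = 0.840). The sign of its log2 fold change turned with the library left out, between -0.34 and 0.13. The paralog mef2cb had 1027 and 1052 in ccn2a-/- and 996 and 1029 in wild type (log2 fold change 0.04, SE 0.182), with overlapping groups.

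**Figure D2:**
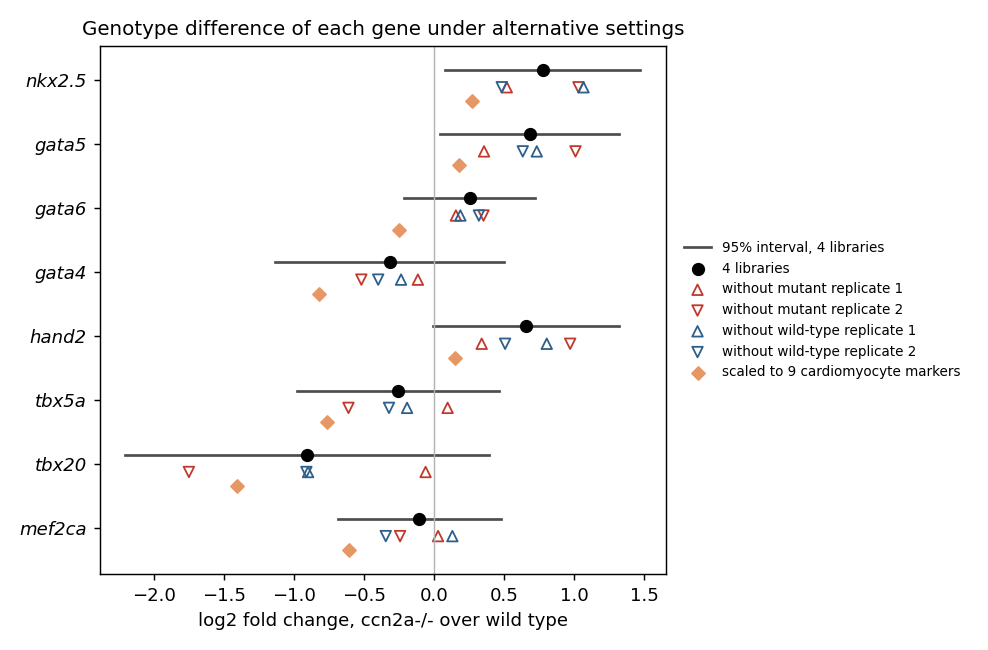
Log2 fold change of ccn2a-/- over wild type (horizontal axis) for each of the 8 genes: black points and lines give the limma estimate from 4 libraries with its 95% interval, open triangles the estimate with 1 library left out (red for a mutant, blue for a wild-type library, upward for replicate 1), and orange diamonds the estimate after scaling to 9 cardiomyocyte marker genes. The estimate for tbx20 lies at -0.06 without ccn2a-/- replicate 1 and at -1.75 without ccn2a-/- replicate 2. After the scaling to 9 markers, chosen after seeing the data, nkx2.5, gata5 and hand2 lie at 0.27 or less. With the planned 10 markers, not drawn, nkx2.5 was at 0.61, gata5 at 0.52 and hand2 at 0.49.

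Measured as the root mean square distance between centred log2 values over the 4 libraries, some of the 8 genes lay close together and others apart. The genes nkx2.5, gata5 and hand2 were within 0.18 of each other, with gata5 and hand2 closest at 0.07. The genes gata4, tbx5a and mef2ca were within 0.21 of each other, with gata4 and tbx5a closest at 0.11. The distance of tbx20 to any other of the 8 was at least 0.48, and gata6 was nearest to gata5 at 0.28. In ccn2a-/- replicate 1 the same 4 genes that were higher in the mutants had their highest value, and the other 4 had their lowest. Of all tested genes, 33.0% were highest and 31.2% lowest in that library. The ratio of hand2 to tbx20 was 44.5 in ccn2a-/- replicate 1 and 8.89 in replicate 2, against 7.43 and 6.10 in wild type. The ratio of nkx2.5 to tbx5a was 13.9 and 5.95 in ccn2a-/- against 5.20 and 3.80 in wild type.

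**Figure D3:**
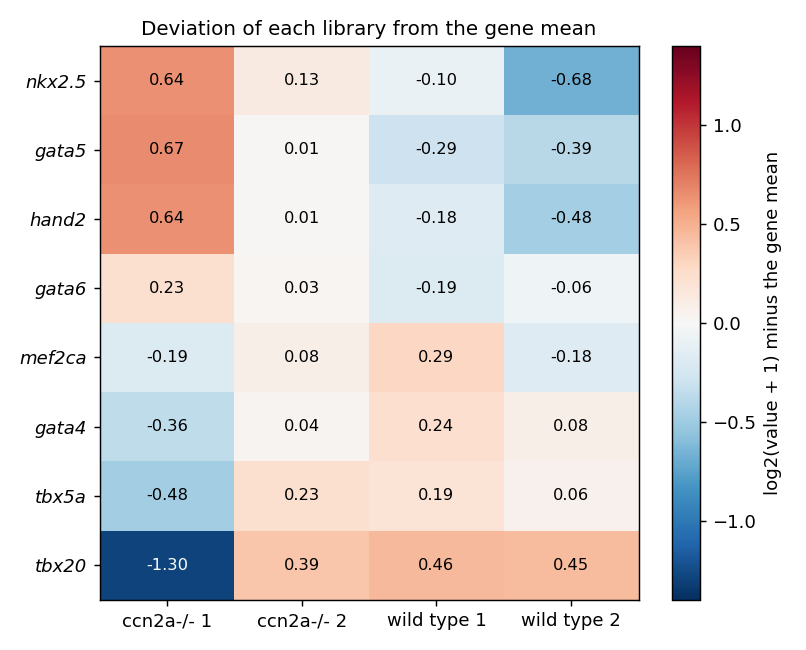
Deviation of log2(value + 1) from the gene's mean over the 4 libraries, for the 8 genes (rows) and the libraries (columns, ccn2a-/- on the left); red is above and blue below the mean, and the number is the deviation. In ccn2a-/- replicate 1 nkx2.5, gata5 and hand2 are 0.64 to 0.67 above their means and tbx20 is 1.30 below its mean, while in ccn2a-/- replicate 2 deviations stay between 0.01 and 0.39.

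Markers of several cell types were mostly on 1 side of wild type, by the sign of the fitted log2 fold change. The sums given below were not divided by the total of all values. That total was itself higher in ccn2a-/-, at 21.5 and 19.1 M, against 18.1 and 16.3 M in wild type. The cardiomyocyte list, which holds contractile genes such as myl7 and tnnt2a, had 9 of its 10 tested genes higher in ccn2a-/-, and its summed level was 971133 to 1184453 in ccn2a-/- and 616644 to 827744 in wild type. The endothelial and endocardial list had 16 of 17 higher, with sums of 37547 to 39613 in ccn2a-/- and 27123 to 32709 in wild type. The erythrocyte list had 10 of 11 above 0, among them gata1a at 3e-04, with sums of 231332 to 262494 in ccn2a-/- and 124506 to 160953 in wild type. None of these genes passed the adjusted threshold, and none of these 3 lists held a marker at 0. The part of these markers in the values of the 8 genes was not tested beyond the scalings given next. The macrophage list went the other way, with 9 of 10 lower and sums of 19334 to 20189 in ccn2a-/- and 23895 to 26722 in wild type. The gene that was not lower was mpeg1.1, with 3105 and 2636 in ccn2a-/- and 2664 and 2881 in wild type. It was named after its values were seen, and its groups overlapped. The epicardial list had 7 of 9 lower, at 44919 to 47682 in ccn2a-/- and 49497 to 56840 in wild type. Its transcription factor gene tcf21, named after its values were seen, had 723 and 481 in ccn2a-/- and 653 and 530 in wild type. The fibroblast and mural list was split at 6 and 6, with sums of 169003 to 288460 in ccn2a-/- and 202588 to 248231 in wild type. The neutrophil list had 5 of 7 lower with sums of 3098 to 3354 in ccn2a-/- and 3348 to 3928 in wild type. Its gene cebp1 was at 0 in wild-type replicate 1.

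The values of the 8 genes were also set against the summed cardiomyocyte list. Per 1000 counts of summed cardiomyocyte markers, nkx2.5 had 2.99 and 2.56 in ccn2a-/- and 2.56 and 2.3 in wild type. On the same scale gata5 had 4.68 and 3.63 in ccn2a-/- and 3.45 and 4.32 in wild type, and hand2 had 5.08 and 4.00 in ccn2a-/- and 4.11 and 4.49 in wild type. The groups overlapped for gata5 and hand2, and for nkx2.5 they overlapped by less than the last printed digit. The gene gata6 had 1.35 and 1.44 in ccn2a-/- and 1.44 and 2.13 in wild type, with both mutants below both wild types by less than the last printed digit at the closest pair. The other 4 lay lower in both mutants on this scale. For example, tbx5a had 0.215 and 0.429 in ccn2a-/- and 0.493 and 0.605 in wild type. Likewise mef2ca had 2.01 and 2.96 in ccn2a-/- and 4.02 and 3.88 in wild type. The summed list was itself higher in both mutants, so a gene with equal values in all libraries would also lie lower there. The share of all tested genes that lay lower on this scale was not computed.

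The fit across all genes was also repeated after each library was scaled to the mean log2 level of the markers. With all 10 tested cardiomyocyte markers, nkx2.5 and hand2 still lay above both wild types while gata5 and gata6 overlapped, and the log2 fold change was 0.61 for nkx2.5, 0.52 for gata5, 0.49 for hand2 and -1.07 for tbx20. That list contains a second row named actc1a, which had 5136 in wild-type replicate 1 and 101 to 159 in the other libraries. Without that row, a choice made after seeing the data, the value was 0.27 for nkx2.5, 0.18 for gata5, 0.15 for hand2, -0.25 for gata6 and -1.41 for tbx20. The groups of nkx2.5, gata5 and hand2 then overlapped. Each scaling moves every gene's fold change by about the same amount, and the median of all genes went to -0.17 with 10 markers and to -0.50 with 9. None of the 8 passed in either fit, with adjusted p of 0.196 or more. Per 1000 counts of the endothelial and endocardial list, nkx2.5 was higher in both mutants, at 89.3 and 66.1 in ccn2a-/- and 64.9 and 52.2 in wild type. On that scale gata5 overlapped, at 140 and 94.0 in ccn2a-/- and 87.3 and 98.2 in wild type. The genes hand2 and gata6 overlapped too, and gata4, tbx5a, tbx20 and mef2ca lay lower in both mutants. The endothelial and endocardial sums were also higher in both mutants, so a gene with equal values in all libraries would lie lower there too. The share of all tested genes that did so was not computed on that scale. Per 1000 counts of the erythrocyte list, nkx2.5 overlapped, at 13.5 and 10.7 in ccn2a-/- and 13.2 and 11.4 in wild type. There gata5 and hand2 overlapped as well, and gata4, gata6, tbx5a, tbx20 and mef2ca lay lower in both mutants. The erythrocyte sums were higher in both mutants too.

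The 8 genes also differed in span, the distance from start to end in the table. The 4 that were higher in ccn2a-/- spanned 1.87 to 11.3 kb, and the 4 that were lower spanned 14.7 to 111 kb. Among all tested genes, split into 5 groups of 3346 by span, the group with the shortest spans had a median log2 fold change of 0.12 with 57.8% of its genes higher in ccn2a-/-, and the group with the longest spans had -0.11 with 40.8% higher. The share of genes at which ccn2a-/- replicate 1 lay more than 2-fold below every other library was 3.80% in the group with the shortest spans and 12.6% in that with the longest. Of the 4 genes that were lower, only mef2ca lay in the group with the longest spans, and tbx5a lay in the next longest. The genes tbx20 and gata4 lay in the middle group, which had a median of -0.005 with 49.3% higher. In that middle group 5.26% of genes had such a low value in ccn2a-/- replicate 1. After a correction of each library for span, added after seeing the data, the log2 fold change was 0.69 for nkx2.5, 0.68 for gata5, 0.54 for hand2, 0.25 for gata6 and -0.87 for tbx20. That of mef2ca turned to 0.11. With that correction nkx2.5, gata5, hand2 and gata6 lay above both wild types in both mutants. The share of all tested genes that did so after it was not computed, and the part of span in these values was not tested.

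**Figure D4:**
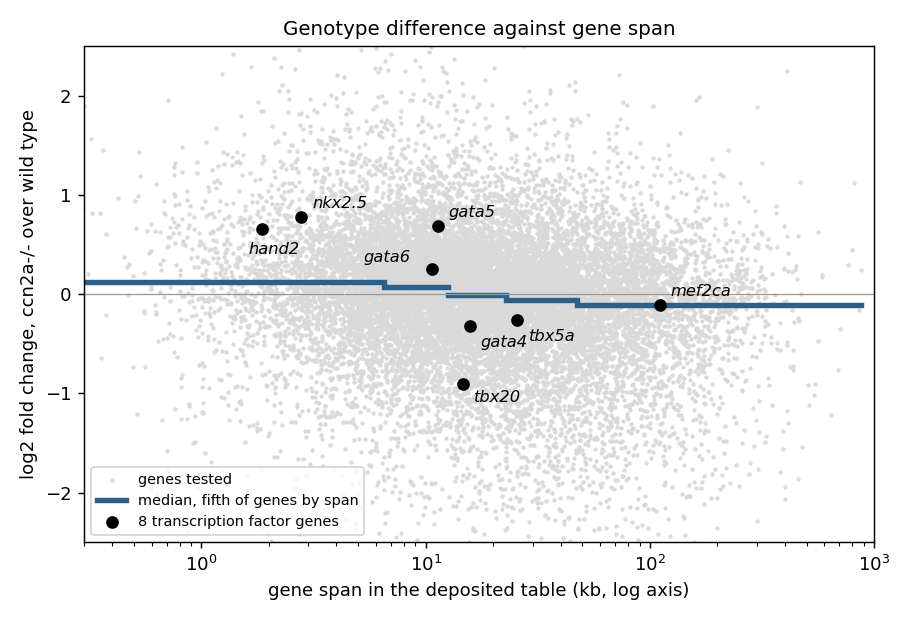
Log2 fold change of ccn2a-/- over wild type (vertical axis) against gene span in kb (log axis) for all tested genes in grey, with 205 genes beyond the axes; blue bars are the medians of 5 equal groups of genes by span and black points the 8 transcription factor genes. The bars step down from 0.12 to -0.11, and the 4 points above 0 lie left of the 4 points below 0.

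Neighbouring genes on the chromosome were not uniformly shifted. Of the 48 tested genes flanking the 8, 3 on each side of each, 27 were higher and 21 lower in ccn2a-/-, with a median log2 fold change of 0.08. On 1 side of tbx20, the carrier gene slc4a7, 169.5 kb away, had 96 and 263 in ccn2a-/- and 348 and 321 in wild type. The gene dpy19l1l, 143.8 kb away, had 22 and 86 in ccn2a-/- and 95 and 114 in wild type. Both were thus low in ccn2a-/- replicate 1 like tbx20 itself. The gene herpud2, on the other side and only 13.6 kb away, had 787 and 746 in ccn2a-/- and 535 and 611 in wild type, with no low value in that library. Beyond slc4a7 and dpy19l1l, abl1 near tbx5a was the single flanking gene with ccn2a-/- replicate 1 more than 2-fold below every other library. That made 3 of the 48 flanking genes, where 6.48% of all tested genes had such a value. The genes slc4a7, dpy19l1l, herpud2 and abl1 were named after their values were seen.

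Among the further paralogs, 7 of 8 tested genes had a fitted log2 fold change above 0 and 1 below, with a median of 0.22. The haematopoietic and endothelial gene gata2a had 487 and 294 in ccn2a-/- and 233 and 185 in wild type, and gata3, known from lymphocytes, had 210 and 184 in ccn2a-/- and 107 and 98 in wild type. The lower gene was mef2aa, with 130 and 223 in ccn2a-/- and 270 and 315 in wild type. The MEF2 family gene mef2b had 41 and 38 in ccn2a-/- and 24 and 14 in wild type. The erythroid gene gata1a had 347 and 333 in ccn2a-/- and 375 and 308 in wild type, and is counted among the 7 although its log2 fold change was 3e-04. The early cardiac gene nkx2.7 was at 10 and 10 in ccn2a-/- and 4 and 6 in wild type, too low to be tested.

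Of 52 other transcription factor genes of the heart that were tested, 33 were higher and 19 lower in ccn2a-/-, with a median of 0.18, and none passed. Both mutants lay above both wild types at 11 of them and below at 11, where 26.6% of all tested genes lay above and 25.7% below. The Iroquois homeobox gene irx5a had 598 and 596 in ccn2a-/- and 427 and 302 in wild type, and the ventricular gene irx4a had 42 and 13 in ccn2a-/- and 5 and 5 in wild type. The endothelial gene fli1a had 3808 and 3083 in ccn2a-/- and 2331 and 2103 in wild type. On the lower side was the mesenchymal gene prrx1a, with 224 and 277 in ccn2a-/- and 410 and 414 in wild type. Each of these 4 genes had an adjusted p of 0.381.

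Genes listed as cofactors of these proteins were divided, with 15 of 31 tested genes higher and 16 lower in ccn2a-/- (median -0.05). Binding of their products to the proteins of the described genes was not tested. The Gata partner gene zfpm2b, of the Friend of GATA family, had 89 and 45 in ccn2a-/- and 124 and 167 in wild type, while its paralog zfpm2a had 596 and 589 in ccn2a-/- and 575 and 442 in wild type. The E-protein gene tcf3a, from the family that pairs with Hand proteins, had 21 and 24 in ccn2a-/- and 60 and 76 in wild type. Its paralog tcf3b went the other way, with 1731 and 1509 in ccn2a-/- and 1329 and 1224 in wild type. The chromatin remodelling gene baz1b had 243 and 445 in ccn2a-/- and 622 and 1182 in wild type. Higher were the muscle methyltransferase gene smyd1b, with 3440 and 3085 in ccn2a-/- and 1548 and 2316 in wild type, and the muscle ubiquitin ligase gene trim63a, with 4838 and 3347 in ccn2a-/- and 2563 and 2384 in wild type. None of the cofactor genes passed (limma, smallest adjusted p = 0.381), and the zfpm2 genes and tcf3b were named after their values were seen.

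A list of cardiac differentiation genes and known targets of cardiac transcription factors was mostly on the higher side, at 24 of 31 tested. Its median was 0.32, where that of the cardiomyocyte markers was 0.46. Control of these genes by the 8 factors was not tested. Both mutants lay above both wild types at 13 of them and below at 4, against 26.6% and 25.7% of all tested genes. The Z-disc gene tcap stood at a log2 fold change of 1.32 (SE 0.331) and ldb3b, another Z-disc gene, at 0.93 (SE 0.327), and the Popeye-domain membrane gene bves had 0.81 (SE 0.280). The alpha-actinin gene actn2b had -0.78 (SE 0.310). The natriuretic peptide gene nppa, a classical target of Gata4, Nkx2.5 and Tbx5, had 55122 and 103223 in ccn2a-/- and 96319 and 36181 in wild type, with overlapping groups. It was named after its values were seen, and none of these genes passed (limma, smallest adjusted p = 0.381).

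**Figure D5:**
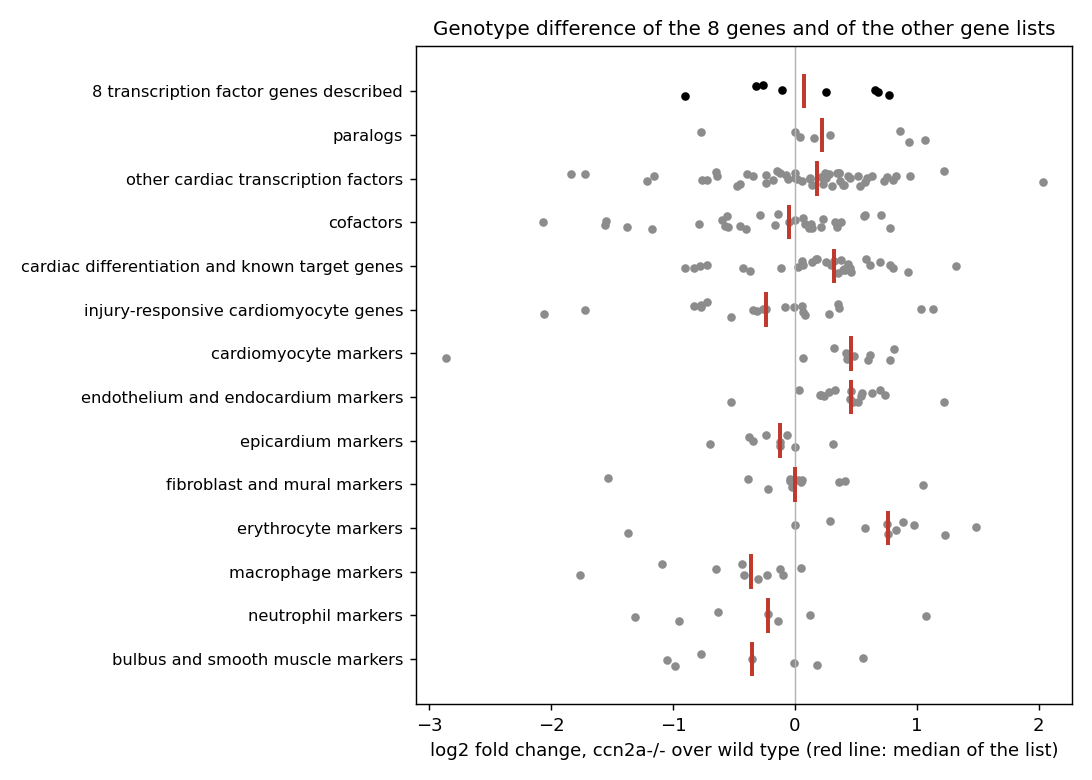
Log2 fold change of ccn2a-/- over wild type (horizontal axis) for each tested gene of the 8 described (black) and of the other lists (grey), with the median of each list as a red line. The 8 genes spread from -0.90 to 0.77 around a median of 0.07, and the cardiomyocyte and endothelial marker lists have medians of 0.46.

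Genes with the most similar pattern were found by the same root mean square distance over the 4 libraries, among 11151 genes that averaged 50 or more, clone names left out. Closest to the mean pattern of the 8 were pgam1a, mrpl15, otud4, commd4 and crfb6, at distances of 0.01 to 0.02. That mean is nearly flat, from -0.15 in wild-type replicate 2 to 0.12 in ccn2a-/- replicate 2, since the 8 genes diverge. The nearest genes to each member were therefore added after the values had been seen. Closest to nkx2.5 was hey2, a ventricular repressor gene of the Hairy family, with 289 and 199 in ccn2a-/- and 169 and 111 in wild type (distance 0.02). The matrix gene hapln1a was closest to tbx5a, with 1782 and 2924 in ccn2a-/- and 2860 and 2601 in wild type (distance 0.004). The gene closest to hand2 was pdlim5b, a Z-disc gene, with 9496 and 6310 in ccn2a-/- and 5459 and 4477 in wild type. For tbx20 it was the G-protein subunit gene gnb4b, with 164 and 501 in ccn2a-/- and 538 and 516 in wild type. These distances over 4 libraries are a description.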

How the data were processed

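The authors deposited 1 table with a whole-number score per gene and library, a read count divided by a size factor and rounded. Regular gaps among the low values show this where the factor is below 1. The factors, estimated from how often each low value occurs, were 0.874 and 0.946 for ccn2a-/- and 0.952 and 1.32 for wild type. A factor of 1.32 leaves no gaps, so that of wild-type replicate 2, and its approximate depth, rest on these frequencies alone. Per the submitters' processing notes, which give no settings, the tools included STAR 2.4.0a, featureCounts 1.4.5-p1 and DESeq2 1.6.2. A stranded kit was used, per the labels' protocols, but whether counting used strand is not stated there. The notes name the build GRCz10, but the table's largest coordinate on chromosome 4, 78048911, lies past the end of that chromosome there, so positions are copied from the table and their build is unsettled.

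The scores are not raw counts, so the test was limma-trend (limma 3.58.1, R 4.3.3) on log2(value + 1), which understates changes of low genes. Genes with a mean of 10 or more were kept (16730), with 2 residual and 4.01 prior degrees of freedom, and Benjamini-Hochberg adjustment over all of them. The fit was tested on simulated data. Counts of the 6 library pairs differed beyond sampling noise (smallest chi-square 20.8 per gene). Summaries and figures used Python 3.11.15, pandas 2.3.3, numpy 2.4.6, scipy 1.17.1 and matplotlib 3.10.9.

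The 8 genes and all lists were chosen with earlier results of these data known. Besides the 8, the paralogs tbx5b, mef2cb and nkx2.7 and up to 4 genes per list with the smallest p were to be named, with the 5 nearest in pattern. Marker lists are given as sums. Flanking genes, ratios, span groups and nearest genes per member were added after seeing the data. Lists were matched by symbol: 12 paralogs (10 rows), 61 other factors (56), 35 cofactors (32) and 36 differentiation and target genes (33). So were 21 injury genes (21) and the marker lists. The atrial list matched only 3 rows and smooth muscle 7. In the cardiomyocyte list the symbols vmhc and vmhcl matched no row, so myh7 and myh7l are not in it.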

Additional observations from a re-analysis of the deposited data

How the results depend on the processing

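None of the 8 genes passed under any of 14 alternatives, 12 of them planned and 2 chosen after seeing the data (span correction, and scaling to cardiomyocyte markers without the second actc1a row). Pseudocounts of 0.5 and 5, no filter, quantile normalisation, TMM factors and voom kept every member's direction and left 0 genes called, but gata4 overlapped at -0.16 under quantile normalisation. Scaling to 10 cardiomyocyte markers gave 157 called genes (43 higher, 114 lower in ccn2a-/-), a member median of -0.093 and 2 members above both wild types. Scaling to 9 gave 4 called genes, all lower, a member median of -0.43, 0 members above, and gata6 at -0.25. The cause was not tested. In these 2 fits the median log2 fold change of all tested genes was -0.17 and -0.50. The share of all tested genes above both wild types was not computed there. Genes at an unadjusted p under 0.05 numbered 1367 and 3961 in these 2 fits, 648 without ccn2a-/- replicate 1 and 448 without wild-type replicate 2, in place of 2145. Leaving out 1 library gave member medians from -0.001 to 0.16 and 4 to 5 members with every mutant left above every wild type left, where 35.7% to 40.3% of all tested genes lay so. It gave tbx5a from -0.61 to 0.10 and mef2ca from -0.34 to 0.13, and mef2ca was 0.11 after span correction. The labels do not say that replicate numbers pair samples, and same-numbered samples did not deviate together (r = 0.004 across genes). With the replicate block 0 genes and 0 members were called, the member median was 0.07, and 2655 genes had an unadjusted p under 0.05. Where 1 library of a genotype is left, it is assumed to vary like the other genotype. Depth limits gata4 most, at 53 to 110 reads.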

Other observations

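The table annotates 6 of the 8 genes with both heart development and transcription factor activity, and hand2 and mef2ca do not carry both. Of 16 other tested genes with both terms, chosen after the table had been seen, 13 were higher and 3 lower in ccn2a-/- (median log2 fold change 0.40), with both mutants above both wild types at 8 and below at 1, where 26.6% and 25.7% of all tested genes did so. Besides gata2a, gata3 and zfpm2b they include foxc1a, a forkhead gene of heart and vessel development, with 946 and 478 in ccn2a-/- and 444 and 323 in wild type, and tcf7l1a, a Wnt pathway repressor gene, with 689 and 541 in ccn2a-/- and 498 and 323 in wild type. None passed (limma, smallest adjusted p = 0.381). Genes of the injury-responsive cardiomyocyte list were lower at 13 of 21 (median -0.24), with none passing. Among them the actin gene acta1a had 4062 and 8333 in ccn2a-/- and 19280 and 30538 in wild type, while the chromatin gene hmgb3a had 2266 and 1820 in ccn2a-/- and 1255 and 680 in wild type. The hypoxia factor gene hif1aa had 607 and 452 in ccn2a-/- and 228 and 287 in wild type. Smooth muscle markers were lower at 5 of 7 genes. Both mutants lay above both wild types at 2 of the 7, mylka and myh11a, and below at 3. Of all tested genes, 26.6% lay above and 25.7% below in this way. The sums of that list overlapped, at 8302 to 10995 in ccn2a-/- and 10437 to 13908 in wild type. Its gene elnb, an elastin gene of the bulbus, had 376 and 317 in ccn2a-/- and 944 and 494 in wild type. Whether bulbus tissue remained after the dissection was not tested.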
